A study of Homo sapiens with 16 samples.

Results

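The genes described here are 5 regulators and effectors of the ATF4 stress response (ATF4, DDIT3, TRIB3, CHAC1 and SESN2) and 5 amino acid transporter genes (SLC7A11, SLC7A5, SLC3A2, SLC1A5 and SLC7A1). They were taken by symbol, and all 10 were found among the 60612 genes of the count table. The cells were NCI-H1944, which derive from a human lung adenocarcinoma, and their RNA was sequenced as 16 libraries in 8 groups, 2 replicates each. The lines labelled STING and MAVS carry a guide against 1 of these genes, the line labelled DKO is a knockout of both, and SCR is the control labelled wild type. Each line was given MPS1i or its vehicle DMSO. The compound, BAY-1217389, blocks MPS1, a kinase of the mitotic checkpoint; it was used at 100 nM for 48 h and followed by 24 h of culture without it. The labels do not say whether a line is a clone or a pool, or whether its replicates came from different cultures. The p-values therefore cover only how much these libraries vary, which may be technical.

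ATF4 is a bZIP transcription factor whose translation goes up when stress kinases phosphorylate the initiation factor eIF2alpha, as in amino acid shortage, endoplasmic reticulum stress or infection. It drives genes that import and make amino acids, and, with partners such as DDIT3 (CHOP), genes that curb or end the response. Because ATF4 is controlled mainly through translation, its mRNA need not follow its protein. STING and MAVS are adaptors that relay the sensing of cytosolic DNA and of cytosolic RNA.

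Total counts ran from 19893784 to 49769938 per library. STING1, the gene of STING, averaged 3.74 CPM (counts scaled to a common library total) in STING and 4.86 CPM in DKO cells, against 8.27 CPM in SCR cells, all under DMSO. MAVS averaged 195 CPM in MAVS and 215 CPM in DKO cells, against 186 CPM in SCR cells, and thus its RNA was no lower where the label says knockout. Neither RNA level checks the protein. Of 6 epithelial markers, KRT8, KRT18, KRT7 and CDH1 had at least 36.7 CPM in every library, EPCAM had 2.18 to 5.69 CPM, and KRT19 had 0 counts in 11 libraries. Of the immune markers, PTPRC had at most 0.131 CPM and CD3E at most 0.0487 CPM in any library. CD14 had 0.0821 to 1.1 CPM (2 to 42 counts). The 2 fibroblast markers summed to 5.02 to 8.11 CPM after MPS1i and 3.20 to 4.94 CPM under DMSO over the 4 lines. The 2 endothelial markers summed to 2.14 to 2.35 CPM after MPS1i and 1.15 to 1.36 CPM under DMSO in STING, 2.35 to 2.84 and 1.57 to 2.38 CPM in the same order in MAVS, 1.66 to 1.94 and 1.95 to 2.42 CPM in DKO, and 1.96 to 2.31 and 0.933 to 1.47 CPM in SCR cells. The endothelial sums lay higher after MPS1i in STING and SCR cells and lower in DKO cells. The fibroblast sums lay higher after MPS1i in each of the 4 lines, in DKO cells at 5.44 to 6.56 CPM against 4.55 to 4.94 CPM under DMSO. They were mostly COL1A1, at 3.16 to 8.04 CPM over all libraries, with PDGFRB at most 0.378 CPM. The endothelial sums were mostly PECAM1, at 0.892 to 2.68 CPM, with CDH5 at most 0.426 CPM. The 6 epithelial markers also summed higher after MPS1i in each line, in SCR cells at 3393 to 3618 CPM against 2542 to 2749 CPM under DMSO. The part of these markers in the results was not tested. In bulk RNA, fewer cells of a type and less RNA per cell cannot be told apart.

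Promoter sequence is shown for the members whose window holds a match to a motif tied to the ATF4 family, so that the letters can be read beside the expression values. RefSeq windows of 300 bases (250 before to 50 after an annotated start, GRCh38.p14) were at hand for 9 of the 10 genes, in 17 windows. No window was at hand for SLC7A11, so its promoter was not searched. The composite element bound by ATF4 with a C/EBP partner was searched as TGATGCAA, and with 1 free base as TGATGNAA, which includes the first. The AP-1 element, bound by other bZIP dimers, was searched as TGACTCA. All were read on both strands, and no AP-1 match overlapped a composite match. TGATGCAA was present in 0.866% of 35116 windows, TGATGNAA in 3.62% and TGACTCA in 4.95%. Of the 9 genes, 2 had TGATGCAA (CHAC1 and SLC1A5), 4 had TGATGNAA (also SLC3A2 and SLC7A1) and 2 had TGACTCA (DDIT3 and SLC3A2). The shares above count windows, while these counts are of genes with up to 3 windows each. They are therefore not on the same scale, and no excess was tested. Below, the 250 bases before a start are printed 5′ to 3′ on the gene's strand with the match in capitals. For SLC7A1, whose match begins at base 8 counted from its start, 30 bases around it are printed. The TGATGNAA match of SLC3A2 is on the reverse strand and begins at base 38 counted from its start. It lies outside the printed bases, and the capitals of SLC3A2 mark TGACTCA. CHAC1 holds the reverse complement of TGATGCAA beginning at -209 from its start (chr15:40953221-40953470, plus strand), and SLC1A5 holds it forward at -97 in 1 of its 3 windows (chr19:46784815-46785064, minus strand). DDIT3 has TGACTCA at -241 (chr12:57520515-57520764, minus strand) and SLC3A2 has it at -37 in 1 of its 3 windows (chr11:62881449-62881698, plus strand). The SLC7A1 stretch is chr13:29595663-29595692, minus strand. A match is a run of letters and shows no binding.
CHAC1: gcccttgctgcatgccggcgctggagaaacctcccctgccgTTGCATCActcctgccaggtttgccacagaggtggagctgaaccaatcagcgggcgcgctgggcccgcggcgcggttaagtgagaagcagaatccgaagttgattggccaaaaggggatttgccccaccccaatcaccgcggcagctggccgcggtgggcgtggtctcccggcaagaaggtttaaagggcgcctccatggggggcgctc
SLC1A5: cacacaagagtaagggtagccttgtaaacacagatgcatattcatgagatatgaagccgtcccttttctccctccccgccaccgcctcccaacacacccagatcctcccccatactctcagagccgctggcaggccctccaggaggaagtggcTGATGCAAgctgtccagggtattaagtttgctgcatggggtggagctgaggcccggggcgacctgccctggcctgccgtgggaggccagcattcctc
DDIT3: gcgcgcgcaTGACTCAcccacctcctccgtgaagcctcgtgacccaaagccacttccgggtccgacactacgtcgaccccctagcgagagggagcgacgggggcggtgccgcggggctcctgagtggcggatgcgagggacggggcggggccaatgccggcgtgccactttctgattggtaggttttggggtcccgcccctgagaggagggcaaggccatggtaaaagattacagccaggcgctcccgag
SLC3A2: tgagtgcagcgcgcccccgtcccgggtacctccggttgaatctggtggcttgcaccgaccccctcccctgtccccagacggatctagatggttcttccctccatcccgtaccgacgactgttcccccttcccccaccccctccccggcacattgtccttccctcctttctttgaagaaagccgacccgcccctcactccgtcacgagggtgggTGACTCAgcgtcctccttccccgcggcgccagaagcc
SLC7A1: gggcgcactgcTGATGAAAcctggcgccgg

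After MPS1i, RNA of most of these genes fell in every line. By the edgeR quasi-likelihood test, with p adjusted over 17950 genes after Benjamini and Hochberg, 10 of 10 members fell in STING, 9 in MAVS, 6 in DKO and 10 in SCR cells. Of all tested genes, 13.9% were called lower in STING, 16.3% in MAVS, 8.22% in DKO and 24.0% in SCR cells. The members' median log2 fold change was -0.44 in STING, -0.55 in MAVS, -0.26 in DKO and -0.95 in SCR cells, while the median of all genes was between 0 and 0.03. In each line, both MPS1i libraries lay below both DMSO libraries for all 10 members. Such a separation downwards was seen for 31.1% of genes in STING, 31.9% in MAVS, 24.8% in DKO and 35.1% in SCR cells. All 10 members passed the filter on low counts, and the scarcest, CHAC1, had 46 to 303 counts a library.

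**Figure D1:**
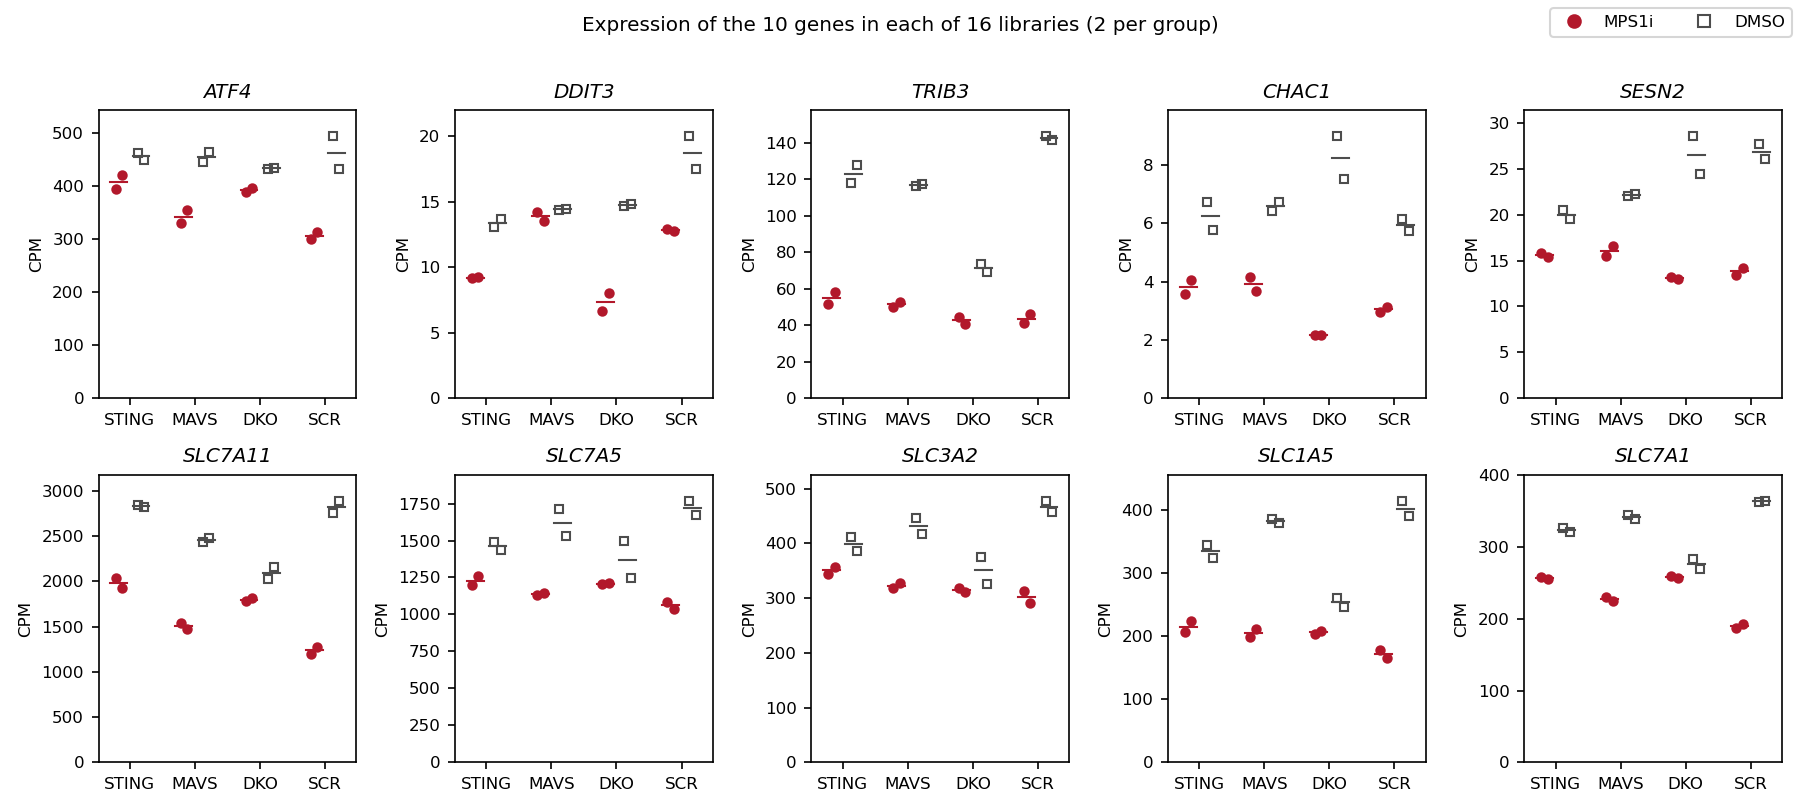
CPM (vertical axis, from 0) of each of the 10 genes in the 4 lines; points are single libraries (MPS1i left in red, DMSO right in grey) and lines are means of 2. Every red pair lies below its grey pair; for CHAC1 the DKO pairs lie at 2.18 CPM after MPS1i and at 7.52 and 8.99 CPM under DMSO.

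The regulators did not move as a block. ATF4 had 395 and 421 CPM after MPS1i and 462 and 450.1 CPM under DMSO in STING cells. In MAVS cells it had 330.3 and 354 CPM after MPS1i, against 446 and 464 CPM under DMSO. DKO cells had 389 and 396 CPM after MPS1i and 432 and 435 CPM under DMSO, and SCR cells 299.98 and 314 CPM after MPS1i and 494 and 432 CPM under DMSO. The DMSO groups of the 4 lines lay close together; after MPS1i the STING and DKO libraries overlapped, MAVS lay below them and SCR was lowest. The log2 fold change (± standard error) was -0.16 ± 0.05 in STING (adjusted p = 0.025), -0.41 ± 0.05 in MAVS (1.1e-06), -0.15 ± 0.05 in DKO (0.071, not passing) and -0.59 ± 0.05 in SCR cells (7.7e-10).

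TRIB3 encodes a pseudokinase that is induced by ATF4 and holds its activity back. It had 51.5 and 58.3 CPM after MPS1i and 118 and 128 CPM under DMSO in STING cells, and 50.3 and 52.9 CPM against 116 and 118 CPM in the same order in MAVS cells. In DKO cells it had 44.6 and 40.7 CPM after MPS1i and 73.8 and 69.3 CPM under DMSO; in SCR cells, 40.95 and 46.2 CPM after MPS1i and 144 and 142 CPM under DMSO. After MPS1i, DKO and SCR libraries overlapped, while under DMSO the DKO libraries were the lowest of the 4 lines. The log2 fold change was -1.16 ± 0.07 in STING, -1.18 ± 0.07 in MAVS, -0.74 ± 0.07 in DKO and -1.71 ± 0.07 in SCR cells, the last with an adjusted p of 2.6e-17 and the largest fall of any member in SCR.

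CHAC1 encodes an enzyme that degrades glutathione. Its MPS1i libraries had 3.58 and 4.05 CPM in STING, 4.17 and 3.68 CPM in MAVS, 2.18 and 2.18 CPM in DKO and 2.95 and 3.14 CPM in SCR cells. Its DMSO libraries had 6.74 and 5.79 CPM in STING, 6.42 and 6.75 CPM in MAVS, 8.99 and 7.52 CPM in DKO and 6.14 and 5.75 CPM in SCR cells. DKO cells thus held both its highest level, under DMSO, and its lowest, after MPS1i. The log2 fold change was -0.72 ± 0.15 in STING, -0.75 ± 0.15 in MAVS, -1.91 ± 0.16 in DKO (adjusted p = 1.8e-09) and -0.96 ± 0.14 in SCR cells; the DKO value ranked 74 among 17950 genes from the lowest.

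DDIT3 is the partner of ATF4 that is linked to cell death under lasting stress. It had 9.15 and 9.25 CPM after MPS1i and 13.1 and 13.7 CPM under DMSO in STING cells, and 14.2 and 13.5 CPM after MPS1i and 14.4 and 14.5 CPM under DMSO in MAVS cells. DKO cells had 6.65 and 8.04 CPM after MPS1i and 14.6 and 14.8 CPM under DMSO; SCR cells had 12.9 and 12.8 CPM after MPS1i and 19.99 and 17.5 CPM under DMSO. The log2 fold change was -0.54 ± 0.10 in STING, -0.05 ± 0.10 in MAVS (adjusted p = 0.71; 95% interval -0.25 to 0.14), -1.02 ± 0.10 in DKO (6.7e-08) and -0.55 ± 0.09 in SCR cells. SESN2, which encodes the leucine sensor and mTORC1 inhibitor Sestrin2, had 13.2 and 13.01 CPM after MPS1i and 28.6 and 24.5 CPM under DMSO in DKO cells, and 13.45 and 14.2 CPM against 27.7 and 26.1 CPM in the same order in SCR cells. Its log2 fold change was -0.36 ± 0.09 in STING, -0.47 ± 0.08 in MAVS, -1.01 ± 0.09 in DKO and -0.96 ± 0.08 in SCR cells.

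For all 5 transporters the fitted fall was larger in SCR cells than in any other line. The order of DKO and STING was not settled for SLC7A5 and SLC3A2, whose difference between these lines did not pass with all libraries. Without DKO DMSO replicate 2, SLC7A5 was at -0.31 in DKO and -0.26 in STING, and SLC3A2 at -0.26 in DKO and -0.19 in STING cells. For SLC1A5 and SLC7A1 that difference passed with all libraries but not without some single ones. SLC7A11 is the cystine and glutamate exchanger xCT. After MPS1i it had 2039 and 1930.0 CPM in STING, 1539.8 and 1473 CPM in MAVS, 1783 and 1810.0 CPM in DKO and 1199.6 and 1277 CPM in SCR cells. Under DMSO it had 2841 and 2826 CPM in STING, 2435 and 2473 CPM in MAVS, 2022 and 2156 CPM in DKO and 2753 and 2888 CPM in SCR cells. SCR libraries were the lowest after MPS1i but among the highest under DMSO, where DKO libraries were lowest. The log2 fold change was -0.51 ± 0.05 in STING, -0.70 ± 0.05 in MAVS, -0.22 ± 0.05 in DKO (adjusted p = 0.0013) and -1.19 ± 0.05 in SCR cells (3.0e-17).

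SLC1A5 (ASCT2) carries glutamine and other neutral amino acids. After MPS1i it had 206 and 224 CPM in STING, 199 and 211 CPM in MAVS, 204 and 208 CPM in DKO and 179 and 166 CPM in SCR cells. Under DMSO it had 345 and 324 CPM in STING, 386 and 378 CPM in MAVS, 261 and 247 CPM in DKO and 414 and 389.6 CPM in SCR cells. The 3 knockout-labelled lines overlapped after MPS1i, all above SCR, while under DMSO no line overlapped another. The log2 fold change was -0.64 ± 0.05 in STING, -0.90 ± 0.05 in MAVS, -0.30 ± 0.05 in DKO and -1.22 ± 0.05 in SCR cells. SLC7A1 (CAT1), a carrier of arginine and lysine, had 259 and 257 CPM after MPS1i and 283 and 269 CPM under DMSO in DKO cells, against 188 and 192 CPM after MPS1i and 363 and 364 CPM under DMSO in SCR cells. It changed by -0.34 ± 0.04 in STING, -0.59 ± 0.04 in MAVS, -0.10 ± 0.04 in DKO (adjusted p = 0.14) and -0.94 ± 0.04 in SCR cells on the log2 scale.

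SLC7A5 (LAT1), which exchanges large neutral amino acids, and SLC3A2 (4F2hc, CD98), the heavy chain that LAT1 and xCT need at the cell surface, moved least among the transporters in SCR cells. SLC7A5 had 1206 and 1209.6 CPM after MPS1i and 1497 and 1244 CPM under DMSO in DKO cells, and 1086 and 1036 CPM after MPS1i and 1768 and 1672 CPM under DMSO in SCR cells. Its log2 fold change was -0.25 ± 0.07 in STING, -0.51 ± 0.07 in MAVS, -0.18 ± 0.07 in DKO (adjusted p = 0.097) and -0.70 ± 0.07 in SCR cells. SLC3A2 had 319 and 311 CPM after MPS1i and 376 and 326 CPM under DMSO in DKO cells, and 313 and 292 CPM after MPS1i and 478 and 457 CPM under DMSO in SCR cells. Its log2 fold change was -0.19 ± 0.06 in STING, -0.42 ± 0.06 in MAVS, -0.15 ± 0.06 in DKO (0.073) and -0.63 ± 0.06 in SCR cells. The DKO DMSO libraries of both genes were widely spaced.

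Taking the roles apart, the median log2 fold change of the 5 regulators was -0.54 in STING, -0.47 in MAVS, -1.01 in DKO and -0.96 in SCR cells. That of the 5 transporters was -0.34 in STING, -0.59 in MAVS, -0.18 in DKO and -0.94 in SCR cells. In SCR cells the medians lay together, while in DKO cells they lay apart. The regulators were spread widely in DKO cells, from -1.91 for CHAC1 to -0.15 for ATF4. The ATF4 value lay within the range of the transporters, -0.30 to -0.10. Some calls changed when 1 library was left out. In STING cells, ATF4, SLC3A2 and SLC7A5 no longer passed without DMSO replicate 1 (adjusted p = 0.12, 0.15 and 0.087) or without MPS1i replicate 1 (0.19, 0.099 and 0.10). In DKO cells, SLC3A2, SLC7A5 and SLC7A1 passed without DKO DMSO replicate 2 (0.0018, 0.00036 and 0.049), and ATF4 passed without either SCR DMSO library (0.03 each). With the replicate number as a block, SLC3A2 (0.043) and SLC7A5 (0.045) also passed in DKO cells, and with no filter on low counts ATF4 (0.023), SLC3A2 (0.016) and SLC7A5 (0.00066) did.

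**Figure D2:**
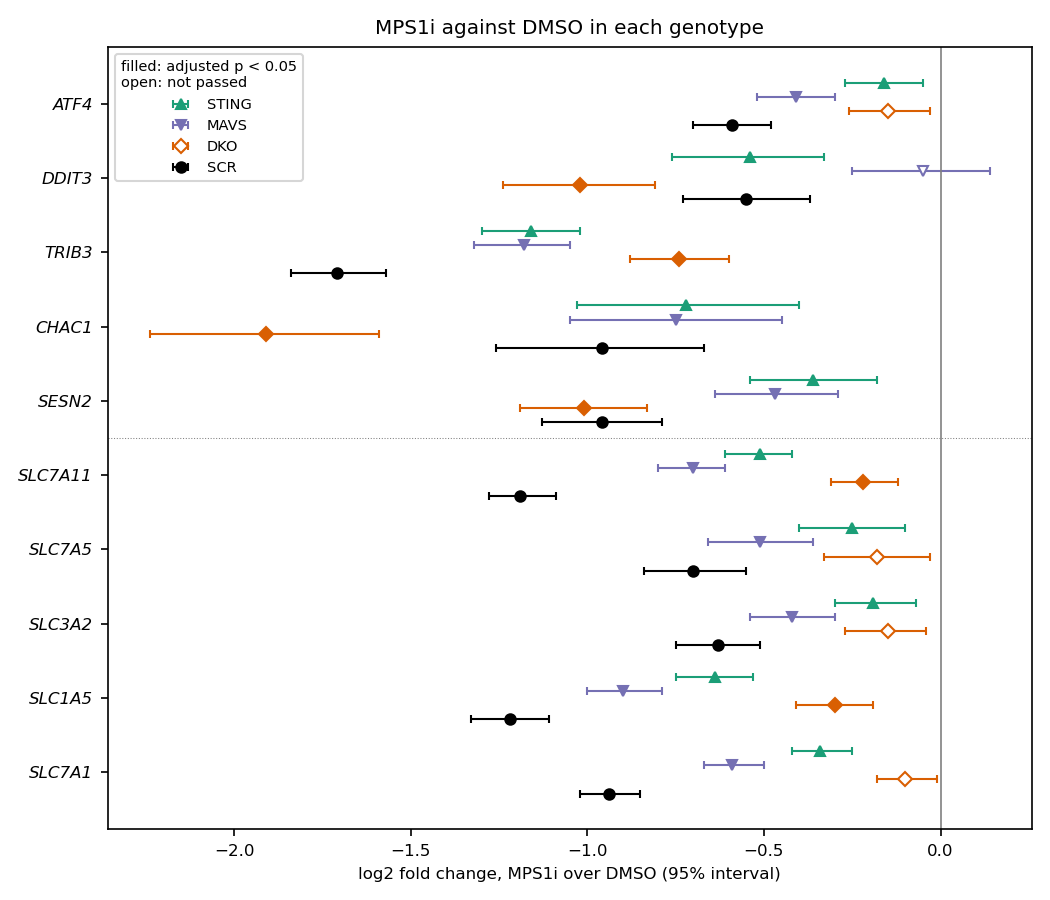
Log2 fold change of MPS1i over DMSO (horizontal axis, with 95% intervals) for each gene in the lines STING, MAVS, DKO and SCR; filled symbols passed an adjusted p of 0.05 and open ones did not. DKO lies farthest left for CHAC1 at -1.91 and DDIT3 at -1.02, and SCR for all 5 transporters, at -0.63 to -1.22. For SESN2, DKO at -1.01 and SCR at -0.96 lie close together.

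The differences between these effects were tested directly, as the effect in a line minus the effect in SCR. A positive difference means a smaller fall. For STING, 8 members were higher (9.97% of all genes), among them all 5 transporters at 0.44 to 0.67. For MAVS, 6 were higher (2.92%), among them SLC7A11 at 0.48 ± 0.06. For DKO, 7 were higher (13.5%) and 2 lower (14.5%). These 3 tests share the SCR libraries and are not independent of each other.

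In DKO against SCR cells the fall was smaller by 0.97 ± 0.06 for SLC7A11 (adjusted p = 6.8e-12), 0.92 ± 0.07 for SLC1A5, 0.84 ± 0.06 for SLC7A1, 0.97 ± 0.09 for TRIB3 and 0.45 ± 0.08 for ATF4 on the log2 scale. It was larger for CHAC1, by -0.95 ± 0.21 (0.0013), and for DDIT3, by -0.48 ± 0.14 (0.0099). The DDIT3 difference did not pass without DKO MPS1i replicate 1 (0.17) or SCR DMSO replicate 2 (0.073), nor by DESeq2 (0.057). For SESN2 the difference was -0.05 (adjusted p = 0.80), with a 95% interval of -0.29 to 0.19. In STING, CHAC1 and DDIT3 showed no difference from SCR that passed, with intervals of -0.18 to 0.68 and -0.28 to 0.29. In MAVS, DDIT3 differed by 0.49 ± 0.13 (0.017), a call that did not pass without any 1 of 5 libraries, with adjusted p between 0.053 and 0.13. In the same comparison SESN2 did not pass without MAVS MPS1i replicate 2 (0.056) and SLC1A5 without SCR MPS1i replicate 2 (0.057), while ATF4, SLC3A2 and SLC7A5 each passed without some other library.

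**Figure D3:**
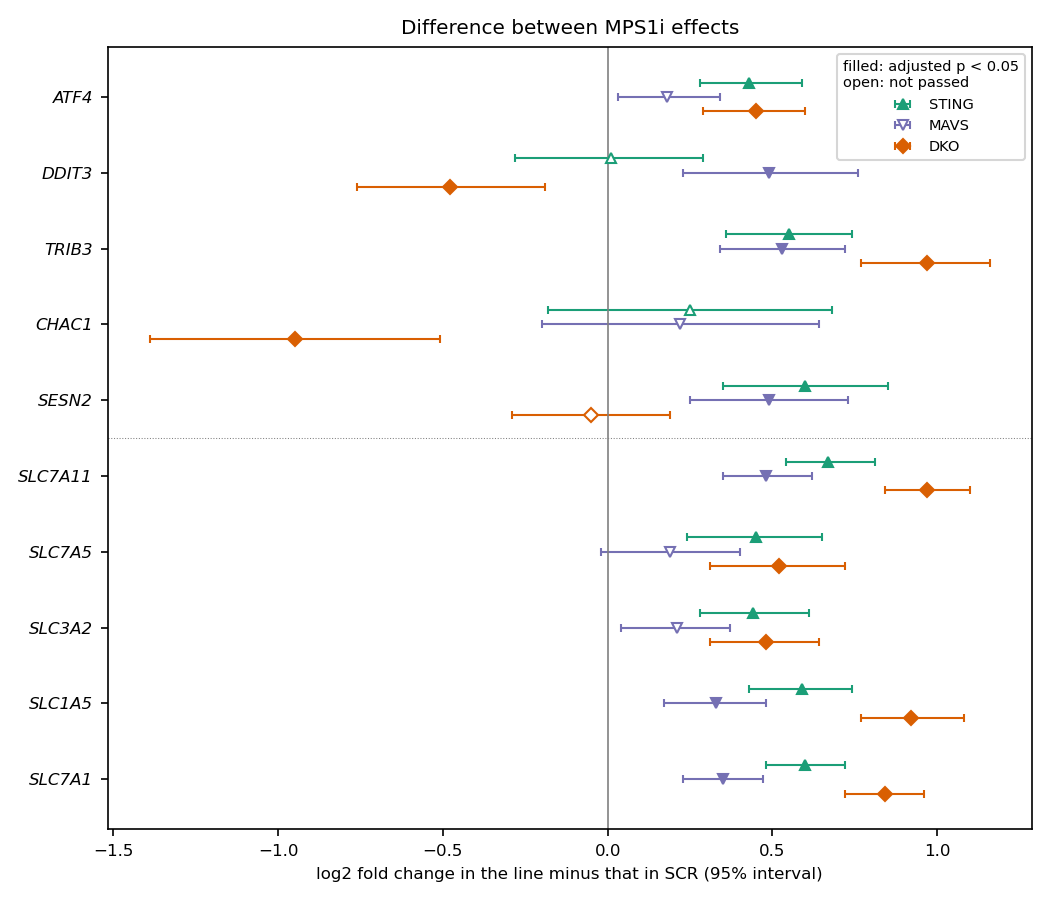
Effect of MPS1i in the lines STING, MAVS and DKO minus that in SCR (log2, horizontal axis, with 95% intervals) for each gene; filled symbols passed an adjusted p of 0.05. All transporter points lie right of 0, and DKO lies left of 0 for CHAC1 at -0.95 and DDIT3 at -0.48.

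DKO was also set against each single line. Against STING, the effect in DKO was higher for 4 members (1.55% of genes), TRIB3 at 0.42, SLC7A11 at 0.30, SLC1A5 at 0.34 and SLC7A1 at 0.24. It was lower for 2 (3.17%), CHAC1 at -1.20 ± 0.22 (adjusted p = 0.00087) and SESN2 at -0.65 ± 0.12 (0.0013). For ATF4 the difference was 0.02 with a 95% interval of -0.14 to 0.17, for SLC7A5 0.07 (adjusted p = 0.80; -0.14 to 0.28), for SLC3A2 0.03 (0.90; -0.13 to 0.20) and for DDIT3 -0.48 (0.061; -0.78 to -0.18). The DDIT3 difference passed without DKO MPS1i replicate 2 (0.033). TRIB3, SLC1A5 and SLC7A1 each did not pass without some single DKO or STING library, at adjusted p of 0.052 to 0.10. Against MAVS, 7 members were higher (4.97%), from 0.27 to 0.60, and 3 lower (6.41%): CHAC1 at -1.17 ± 0.22, DDIT3 at -0.97 ± 0.14 and SESN2 at -0.54 ± 0.12. Of these calls, SLC7A5 did not pass with 12, SLC3A2 with 6 and ATF4 with 3 of the 16 libraries left out one at a time, at adjusted p of 0.054 to 0.14.

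The lines already differed under DMSO. DKO against SCR cells had 7 members lower (15.3% of genes) and 1 higher (15.8%). All 5 transporters were lower, by -0.33 ± 0.07 for SLC7A5 to -0.66 ± 0.05 for SLC1A5, and TRIB3 fell by 49.9% (adjusted p = 5.3e-12). CHAC1 was higher by 0.46 ± 0.13 (0.0083). ATF4 differed by -0.09 (0.19), with a 95% interval of -0.20 to 0.02, so its level was near that of SCR while TRIB3 and the transporters were lower. CHAC1 did not pass without DKO DMSO replicate 1 (0.15) or SCR DMSO replicate 2 (0.078), nor by DESeq2 (0.068), DDIT3 did not without SCR DMSO replicate 1 (0.092), and ATF4 passed without SCR DMSO replicate 2 (0.0093).

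STING against SCR cells under DMSO had 7 members lower (5.47%) and MAVS against SCR cells 4 (2.57%). The falls in STING ran from -0.17 for SLC7A1 to -0.49 for DDIT3, and those in MAVS from -0.20 for SLC7A11 to -0.38 for DDIT3. SLC7A11 differed by 0.01 between STING and SCR cells, with a 95% interval of -0.09 to 0.10. These counts rested on single libraries. In STING, 2 members passed without STING DMSO replicate 2, and 4 without STING DMSO replicate 1 or SCR DMSO replicate 1. In MAVS, 0 passed without MAVS DMSO replicate 1, 1 without MAVS DMSO replicate 2 and 2 without either SCR DMSO library.

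After MPS1i the sign of most transporter differences was the opposite of that under DMSO in DKO cells: 4 of 5 passed as higher than in SCR cells, where under DMSO 5 of 5 were lower. STING against SCR cells had 7 members higher (15.8%) and DDIT3 lower by -0.48 ± 0.10 (17.3% of genes were lower). MAVS had 5 higher (7.46%), and DKO had 5 higher (22.6%) and 2 lower (22.4%). SLC7A11 was higher by 0.68 ± 0.05 in STING, 0.28 ± 0.05 in MAVS and 0.54 ± 0.05 in DKO than in SCR cells, and SLC7A1 by 0.43 ± 0.04, 0.26 ± 0.04 and 0.44 ± 0.04 in the same order. ATF4 was higher by 0.41 ± 0.05 in STING, 0.16 ± 0.05 in MAVS (adjusted p = 0.045) and 0.35 ± 0.05 in DKO. The MAVS call for ATF4 was lost with 7 of 16 libraries left out one at a time (0.054 to 0.41), with RLE scaling (0.058), with the 1 CPM filter (0.055) and with protein-coding genes only (0.06). In DKO, DDIT3 was lower by -0.83 ± 0.10 and CHAC1 by -0.49 ± 0.17, and TRIB3 differed by -0.03 with a 95% interval of -0.17 to 0.11. Among these, CHAC1 in DKO did not pass without either DKO MPS1i library or SCR MPS1i replicate 2 (0.075 to 0.12), and SLC7A5 in DKO did not with 10 of 16 libraries left out one at a time (0.051 to 0.20). In STING, SLC7A5 and SLC3A2 did not pass without SCR MPS1i replicate 2 (0.20 and 0.09), among other single libraries. In MAVS, 3 members passed without either SCR MPS1i library or MAVS MPS1i replicate 2.

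**Figure D4:**
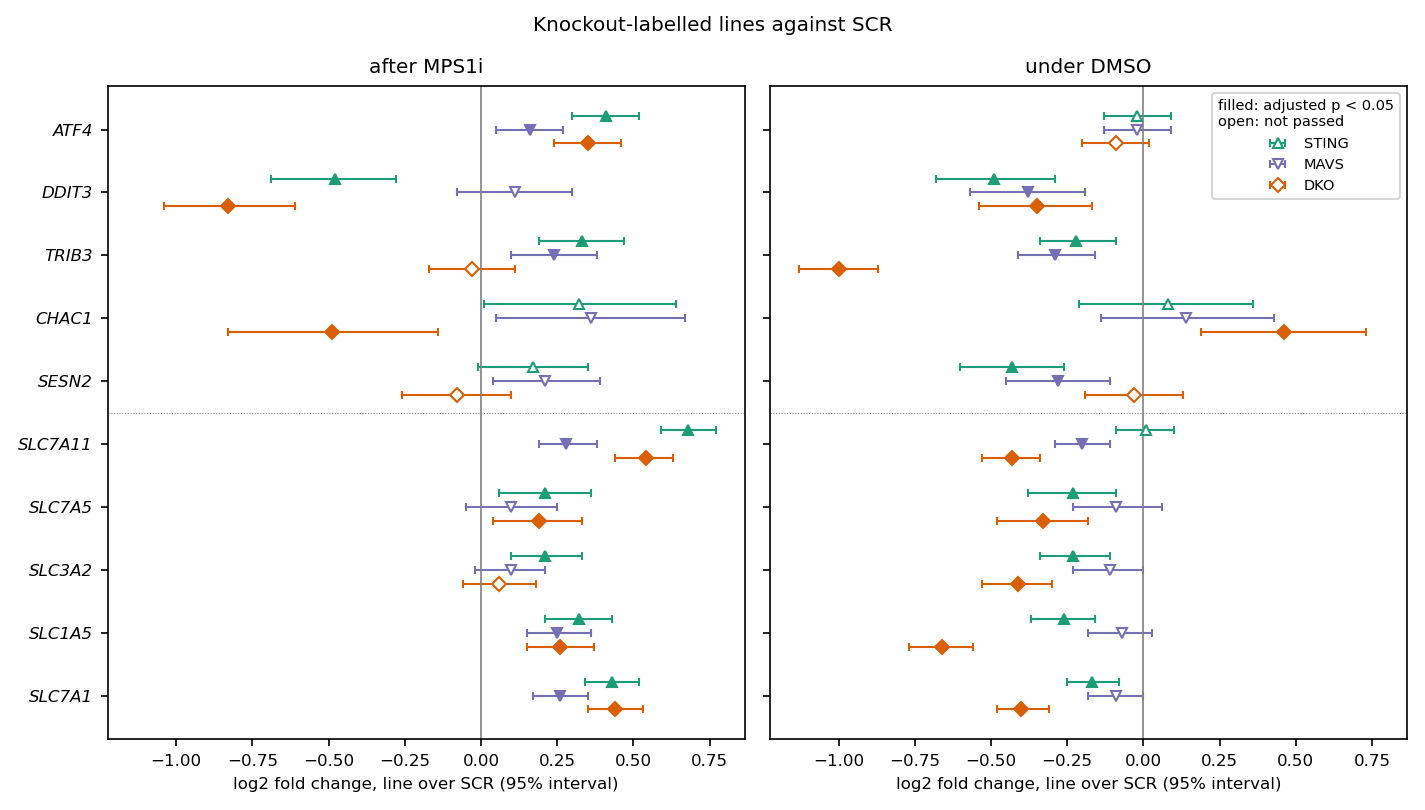
Log2 fold change of each knockout-labelled line over SCR (horizontal axes, with 95% intervals), after MPS1i on the left and under DMSO on the right; filled symbols passed an adjusted p of 0.05. In DKO, SLC7A11 lies at 0.54 after MPS1i and -0.43 under DMSO, and CHAC1 at -0.49 after MPS1i and 0.46 under DMSO.

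Other genes of the pathway were followed as lists. The genes named from each list were picked by their adjusted p in SCR cells, which favours larger changes in SCR than in the other lines. After MPS1i, the share of all genes called higher was 15.5% in STING, 17.1% in MAVS, 6.53% in DKO and 26.0% in SCR cells, beside the shares called lower given above. The enzymes of serine, asparagine and one-carbon synthesis fell most fully: 9 of 12 were lower in DKO (median -0.50) and 12 of 12 in SCR cells (median -1.31). PSAT1, which makes phosphoserine, averaged 202 ± 8.57 CPM after MPS1i and 344 ± 11.9 CPM under DMSO in DKO cells, and 98.4 ± 2.50 CPM after MPS1i and 719.6 ± 6.98 CPM under DMSO in SCR cells (SD, n = 2). Its log2 fold change was -1.62 ± 0.05 in STING, -1.98 ± 0.05 in MAVS, -0.77 ± 0.05 in DKO and -2.87 ± 0.05 in SCR cells. ASNS, asparagine synthetase, changed by -1.84 ± 0.06 in STING, -1.93 ± 0.06 in MAVS, -0.85 ± 0.06 in DKO and -2.82 ± 0.06 in SCR cells. CBS and PHGDH changed by -0.70 each in DKO cells, against -2.94 and -2.25 in SCR cells. The effect in DKO minus that in SCR was called higher for 12 of 12 of these enzymes, with a median difference of 0.98. Of all genes, 13.5% were called higher in that comparison. The highest log2 fold change in the list was 0.14 in DKO and -0.14 in SCR cells, so not every enzyme fell in DKO.

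Of 20 cytosolic aminoacyl-tRNA synthetases, which load tRNAs with amino acids, 9 were lower and 1 higher in DKO, and 15 lower and 5 higher in SCR cells. GARS1 changed by -0.47 in DKO and -1.50 in SCR cells, and IARS1 by -0.22 in DKO and -1.45 in SCR cells. WARS1, which is also induced by interferon, rose by 0.31 in STING and 0.77 in MAVS, was at -0.05 in DKO (adjusted p = 0.52) and rose by 1.97 ± 0.04 in SCR cells. Among other ATF4 targets, 7 of 18 tested were lower and 3 higher in DKO, and 10 lower and 3 higher in SCR cells. PCK2, the mitochondrial PEP carboxykinase, changed by -0.82 in DKO and -2.61 in SCR cells, and XPOT, the tRNA exportin, by -0.10 (0.12) in DKO and -1.12 in SCR cells.

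Of 20 other amino acid transporters tested, 3 were lower and 3 higher in DKO, and 6 lower and 4 higher in SCR cells, so the fall did not extend to the whole class. SLC1A4 changed by -0.66 in DKO and -1.91 in SCR cells, and SLC38A1, a glutamine carrier, by -0.29 in DKO and -1.34 in SCR cells. SLC1A1, a glutamate carrier, rose by 1.11 in STING, 1.25 in MAVS, 0.63 in DKO and 2.03 in SCR cells. The 6 calls in DKO became 3 without DKO MPS1i replicate 1. Among 8 eIF2alpha kinases and translation restart genes, 0 were lower and 1 higher in DKO, and 2 lower and 5 higher in SCR cells. The 1 call in DKO was lost with only the compared groups, without DKO DMSO replicate 1 and without either DKO MPS1i library, leaving 0. EIF2AK2 (PKR), an interferon-induced kinase, rose by 1.96 ± 0.05 in STING and 1.07 ± 0.05 in MAVS, was at 0.08 (0.31) in DKO and rose by 1.30 ± 0.05 in SCR cells. PPP1R15A (GADD34), which returns eIF2alpha to its unphosphorylated form, rose by 0.49 ± 0.06 in STING and by 1 ± 0.06 in MAVS on the log2 scale, was at 0.07 (0.47) in DKO and rose by 1.58 ± 0.06 in SCR cells.

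Of 8 bZIP partners of ATF4, 3 were lower and 0 higher in DKO, and 3 lower and 4 higher in SCR cells. CEBPG fell by 0.30 in DKO and by 0.89 in SCR cells on the log2 scale, while ATF3 rose by 0.87 in STING and 1.66 in MAVS, was at 0.06 (0.76) in DKO and rose by 1.54 ± 0.08 in SCR cells. JDP2 changed by -0.89 in DKO and -0.50 in SCR cells. Of 16 endoplasmic reticulum chaperones and sensors, 4 were lower and 2 higher in DKO, and 6 lower and 6 higher in SCR cells; the 6 calls in DKO became 3 with only the compared groups or without either DKO MPS1i library. HERPUD1 changed by -0.40 in DKO and -0.85 in SCR cells, and CALR by -0.25 in DKO and 0.48 in SCR cells. Of 6 genes listed under glutathione synthesis, 2 were lower in each of DKO and SCR cells, GGCT and GSR. These 2 enzymes do not build glutathione from amino acids, and the other 4 genes were not called in either line. In DKO cells, 1 of the 2 passed by DESeq2 and 0 with only the compared groups. The DKO calls also changed when single DKO libraries were left out. GGCT was at -0.29, and at -0.32, -0.28 and -0.13 without DKO MPS1i replicate 1, DKO MPS1i replicate 2 and DKO DMSO replicate 2. GSR was at -0.17, and at -0.17, -0.17 and -0.12 in the same order. Of 15 genes of mTORC1 amino acid sensing, 1 was lower in DKO, and 5 were lower and 1 higher in SCR cells. The DKO count was 0 by DESeq2, with only the compared groups or without either DKO MPS1i library, and 2 without DKO DMSO replicate 1, and the 6 calls in SCR cells were 3 by DESeq2. RRAGD was at -0.14 (0.29) in DKO and -0.93 ± 0.08 in SCR cells.

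**Figure D5:**
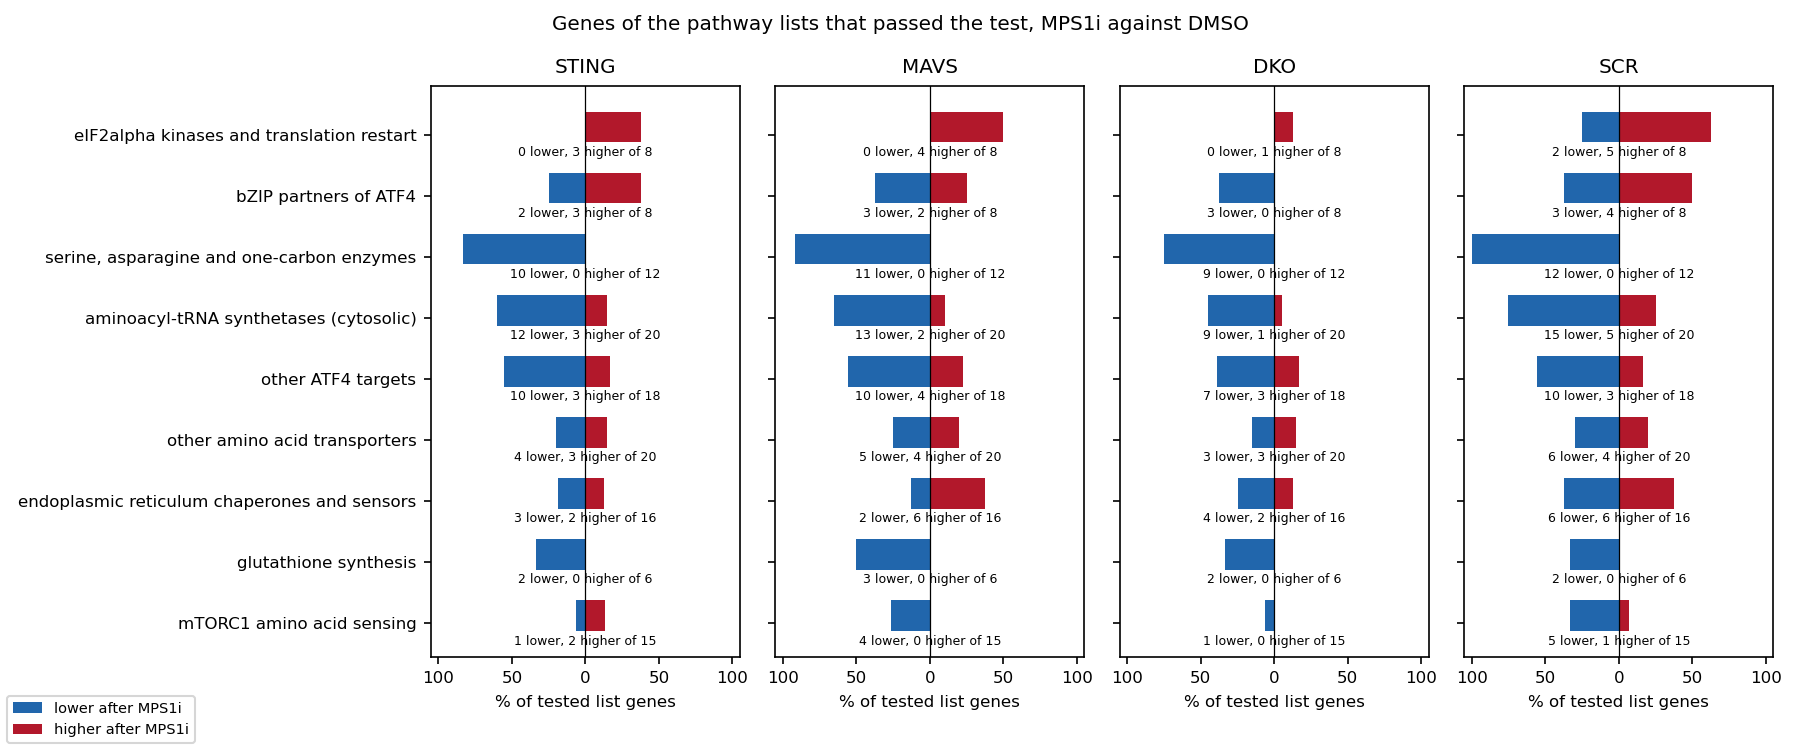
Share of each list's tested genes (horizontal axis, percent) that passed an adjusted p of 0.05 after MPS1i against DMSO, lower to the left in blue and higher to the right in red, in the lines STING, MAVS, DKO and SCR. The enzymes of serine, asparagine and one-carbon synthesis have 9 of 12 lower in DKO and 12 of 12 in SCR.

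Over the 8 group means, the members' profiles were alike to different degrees, given here without a test since the groups share lines and treatments. Pearson's r with the mean of the other 9 members was 0.97 for TRIB3, SLC7A5 and SLC1A5, and 0.59 for DDIT3, the lowest. Among protein-coding genes averaging 10 CPM or more, the 6 most like the members' mean profile were SLC45A4, RAB3IP, KIF1B, UVRAG, SSRP1 and SLC1A4, with r of 0.9894 to 0.9915. The 3 most like ATF4 were C6orf89 (0.9965), UBALD2 (0.9945) and EIF2D (0.9936). EIF2D changed by -0.11 in DKO and -0.85 in SCR cells after MPS1i on the log2 scale.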

How the data were processed

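Poly(A) RNA was sequenced with a stranded kit, per the labels' protocols. The authors deposited raw counts per gene; the submitters' processing notes name Trim Galore, cutadapt, Trimmomatic, STAR and featureCounts with GRCh38, without versions, and the strand setting is not given in the sources used here. The edgeR function filterByExpr (count minimum 10, total minimum 15) left 17950 genes. edgeR 4.0.16 in R 4.3.3 was run with TMM scaling, robust quasi-likelihood fits (two-sided F-test) and 1 mean per group (8 residual degrees of freedom) for 15 comparisons, each adjusted by Benjamini-Hochberg, with calls at an adjusted p under 0.05. CPM use TMM-scaled totals. Standard errors were taken from the F statistic, as the size of the log2 change over the root of F. Levels were not compared between genes, as no transcript length was used. Same-numbered replicates were not paired: over 28 pairs of groups their residuals correlated at -0.05 to 0.09. The test was also run on simulated data, with a recovery limit that was lowered after its first run.

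Members and lists were chosen with earlier results of these data known. Named were all members, up to 4 genes a list with the smallest adjusted p in SCR cells and a mean of at least 1 CPM, and the genes most like in profile. Alternatives were RLE scaling, DESeq2 1.42.0, no filter, a 1 CPM filter, a replicate block, only the compared groups, protein-coding genes only, and leaving out each library. The result of 1 marker gene is not reported here.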

Additional observations from a re-analysis of the deposited data

Results flagged for a closer look

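The effect of MPS1i differed between lines by a test of the difference itself (edgeR interaction term, adjusted p under 0.05) for the values below, all on the log2 scale; positive means a smaller fall in the line named first. No explanation was tested. For STING minus SCR the difference was 0.43 for ATF4, 0.55 for TRIB3, 0.60 for SESN2, 0.67 for SLC7A11, 0.45 for SLC7A5, 0.44 for SLC3A2, 0.59 for SLC1A5 and 0.60 for SLC7A1. For MAVS minus SCR the difference was 0.49 for DDIT3, 0.53 for TRIB3, 0.49 for SESN2, 0.48 for SLC7A11, 0.33 for SLC1A5 and 0.35 for SLC7A1. For DKO minus SCR the difference was 0.45 for ATF4, -0.48 for DDIT3, 0.97 for TRIB3, -0.95 for CHAC1, 0.97 for SLC7A11, 0.52 for SLC7A5, 0.48 for SLC3A2, 0.92 for SLC1A5 and 0.84 for SLC7A1. For DKO minus STING the difference was 0.42 for TRIB3, -1.20 for CHAC1, -0.65 for SESN2, 0.30 for SLC7A11, 0.34 for SLC1A5 and 0.24 for SLC7A1. For DKO minus MAVS the difference was 0.27 for ATF4, -0.97 for DDIT3, 0.44 for TRIB3, -1.17 for CHAC1, -0.54 for SESN2, 0.49 for SLC7A11, 0.33 for SLC7A5, 0.27 for SLC3A2, 0.60 for SLC1A5 and 0.49 for SLC7A1. Groups hold 2 libraries each, so no single library could be tested for standing apart.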

How the results depend on the processing

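Over 23 alternatives, 3305 of 3450 values of the 10 genes kept their side of the threshold, 127 no longer passed and 18 newly passed. No value that passed changed sign; 29 values near 0, between -0.08 and 0.08, had the other sign without passing in either fit. No call changed for the MPS1i effect in SCR or MAVS cells, or for STING minus SCR. DESeq2 ended 6 calls: CHAC1 (adjusted p = 0.068) in DKO against SCR under DMSO, CHAC1 (0.098) and SLC7A5 (0.062) in DKO against SCR after MPS1i, SESN2 (0.098) in MAVS against SCR under DMSO, and DDIT3 in DKO minus SCR (0.057) and MAVS minus SCR (0.071). The fit with no filter ended 1 call (CHAC1 in DKO against SCR after MPS1i, 0.052) and added 5, RLE scaling and the 1 CPM filter each ended ATF4 in MAVS against SCR after MPS1i (0.058 and 0.055), the protein-coding fit ended 3, and the fit on only the compared groups ended 2. With the replicate number as a block, 148 of 150 values were on the same side and 2 newly passed, SLC3A2 (adjusted p = 0.043) and SLC7A5 (0.045) for MPS1i in DKO cells. The samples share only a number. Leaving out each library in turn gave 2 to 7 members called for STING against SCR under DMSO (7 with all), 0 to 4 for MAVS against SCR under DMSO (4 with all) and 3 to 5 for MAVS against SCR after MPS1i (5 with all). The cause was not tested, though leaving out a library leaves 1 in its group, assumed to vary like the others. Over all genes, calls for MPS1i in DKO cells were 2648, against 1629 with only the compared groups, 1433 without DKO MPS1i replicate 1 and 1682 without replicate 2. Leaving out 1 library also moved MAVS against SCR under DMSO (1177) to 339 to 744, STING against SCR under DMSO (1826) to 897 to 1015, MAVS against SCR after MPS1i (2859) to 1794 to 1855, MPS1i in STING cells (5269) to 3364, DKO minus STING (848) to 535 to 564 and MAVS minus SCR (1336) to 851, in the cases where the move exceeded 1.5 times. Depth limits CHAC1 most, at 46 counts in its lowest library.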
